A study of Homo sapiens with 4 samples.

Results

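The 47 genes described here encode proteins that make ribosomes in and around the nucleolus. They were chosen by symbol from a written list and matched by Ensembl gene identifier to the 58735 genes of the deposited count files. All 47 were found in the GENCODE 29 annotation, all 47 were abundant enough to be tested, and the rule itself uses no measured value, though the list was written with earlier results of these data known. The study compared A549 cells, a human lung adenocarcinoma line, infected with a lentivirus carrying a control hairpin (shControl, genotype labelled WT) or a hairpin against RALY (shRALY, genotype labelled RALY knockdown), at a time labelled day 2. RALY belongs to the hnRNP family, whose proteins bind RNA. Each group held 2 libraries of poly(A)-selected RNA from cells grown in RPMI 1640 medium with 10% FBS, and all 4 libraries came from infected cells. The sources used here do not give the hairpin sequences or how many hairpins were used. Nothing says that the replicates came from separate cultures, so the p-values reflect only how much these libraries vary, which may be technical variation.

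Ribosome assembly begins when RNA polymerase I transcribes the ribosomal DNA into a long precursor in the nucleolus. Small nucleolar ribonucleoproteins (snoRNPs) then modify the precursor: box C/D particles guide ribose methylation and box H/ACA particles guide pseudouridylation. A large assembly called the small subunit processome folds and cuts the part that becomes the small subunit, and other factors build the large subunit and carry both subunits to export and final maturation. Growing and dividing cells transcribe these protein genes at high levels, and MYC, which binds the E-box sequence, is a well-known activator of many of them.

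As the check of the labels, RALY stood at 123 and 133 CPM (the normalised read count, scaled to the total of each library) in shControl replicates 1 and 2 and at 40.9 and 41.5 CPM in shRALY replicates 1 and 2. Its log2 fold change was -1.64 with an SE of 0.11 (quasi-likelihood test of edgeR, p adjusted after Benjamini and Hochberg = 5.85e-11). Total counts ranged from 16745818 to 18632787 per library, and mitochondrial genes took 6.99% to 7.67% of counts in shControl and 8.66% to 8.88% in shRALY; the part of this shift in the results was not tested. All 5 epithelial markers were above 1 CPM, with a summed level of 5294 to 5787 CPM in shControl and 5708 to 5886 CPM in shRALY, most of it KRT8 and KRT18. Of these 5, KRT19 (log2 1.71; edgeR adjusted p = 1.35e-11) and CDH1 (log2 0.47; edgeR adjusted p = 0.019) rose and the other 3 did not pass; the part of these shifts in the results was not tested. The labels call the cells alveolar basal epithelial, but the alveolar markers SFTPC, SFTPB, SFTPA1 and NKX2-1 were each at or below 0.218 CPM in every library, and AGER was at 1.67 and 1.29 CPM in shControl and 2.45 and 2.45 CPM in shRALY and did not pass. The basal keratins KRT5 and KRT14 were at or below 0.367 CPM, while TP63 fell from 3.35 and 3.29 CPM to 1.36 and 1.59 CPM (log2 -1.17; edgeR adjusted p = 0.00726). Summed levels reached at most 0.435 CPM for 4 immune markers and 0.822 CPM for 3 endothelial markers, and ranged from 13.4 to 18.4 CPM for 3 fibroblast markers, nearly all of it COL1A1.

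The promoters of these genes often held an E-box, so the windows of 4 members past the test are shown. RefSeq promoter windows (GRCh38.p14, 250 bases before to 50 bases after an annotated start) were available for 42 of the 47 members, matched by symbol. The 4 sequences below are FBL and UTP20, which had the largest falls, and NOP10 and DDX10, which are 2 of the 3 members that rose (the other is RRP12). They lie at chr19:39846330-39846629 (FBL, minus strand), chr12:101279855-101280154 (UTP20, plus strand), chr15:34343087-34343386 (NOP10, minus strand) and chr11:108664819-108665118 (DDX10, plus strand). Each is written 5′ to 3′ on the gene's strand. Capitals mark the E-box CACGTG and the ETS-type motif CCGGAAG, searched on both strands, so the second can appear as CTTCCGG.
FBL: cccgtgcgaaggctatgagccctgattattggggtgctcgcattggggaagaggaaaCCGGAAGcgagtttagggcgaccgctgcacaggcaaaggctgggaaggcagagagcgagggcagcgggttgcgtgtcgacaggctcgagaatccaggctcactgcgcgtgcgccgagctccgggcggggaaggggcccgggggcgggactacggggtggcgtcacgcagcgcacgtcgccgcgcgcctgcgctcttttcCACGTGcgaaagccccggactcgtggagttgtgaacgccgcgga
UTP20: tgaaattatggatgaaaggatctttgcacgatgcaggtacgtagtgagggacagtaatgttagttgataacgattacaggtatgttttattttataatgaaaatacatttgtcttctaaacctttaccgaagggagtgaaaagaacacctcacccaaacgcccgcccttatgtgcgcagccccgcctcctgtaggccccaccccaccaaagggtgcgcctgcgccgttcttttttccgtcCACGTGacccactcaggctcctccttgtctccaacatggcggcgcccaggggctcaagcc
NOP10: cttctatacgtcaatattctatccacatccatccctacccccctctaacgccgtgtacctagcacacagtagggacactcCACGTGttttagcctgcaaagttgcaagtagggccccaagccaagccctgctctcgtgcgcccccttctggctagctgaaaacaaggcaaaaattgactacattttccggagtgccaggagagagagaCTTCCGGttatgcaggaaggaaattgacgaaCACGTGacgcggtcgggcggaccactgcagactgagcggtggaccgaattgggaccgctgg
DDX10: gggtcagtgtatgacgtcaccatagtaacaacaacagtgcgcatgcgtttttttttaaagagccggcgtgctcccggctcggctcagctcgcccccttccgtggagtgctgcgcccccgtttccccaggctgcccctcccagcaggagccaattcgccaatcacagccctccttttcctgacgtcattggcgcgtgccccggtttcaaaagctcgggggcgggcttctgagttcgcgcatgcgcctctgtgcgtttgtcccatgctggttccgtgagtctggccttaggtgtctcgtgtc

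In these windows FBL had a CACGTG 6 bases after the start and UTP20 had one 10 bases before it, while NOP10 had a pair, 170 and 11 bases before its start. DDX10 had neither marked motif. CACGTG occurred in a promoter of 21 of the 42 members (50%), against 7.26% of all 35116 promoter windows and 12.4% of the 10855 tested genes with a window. CCGGAAG occurred in 17 members (40.5%), against 21.3% of tested genes, and in 10.3% of single windows. The CCAAT box was at 42.9% of members and 42.5% of tested genes, and TATAAA at 2 members (4.76%) and 8.48% of tested genes. By response, the E-box was present in 5 of 14 members that fell, 1 of 2 that rose and 15 of 26 that passed in neither direction. These counts describe letters in a window, and binding was not measured.

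Across the whole group, 18 members were lower in shRALY, 3 were higher and 26 did not pass the test (edgeR adjusted p under 0.05 over 15912 tested genes). The falls were 38.3% of the members, against 20.4% of all tested genes called lower, and the rises were 6.38%, against 20.6% called higher; 41% of all tested genes were called in either direction. The median log2 fold change of the members was -0.20, with quartiles of -0.41 and 0.04, against -0.01 over all tested genes with quartiles of -0.39 and 0.37. A negative log2 fold change was found for 34 of 47 members (72.3%), against 51% of all tested genes. The changes were small, but 46 members were above 10 CPM in every library, while all tested genes include many at lower levels. The sizes of change were not compared at a matched level. FBL was the only member past 2-fold, 1 of 47 lower, against 6.57% of all tested genes lower by 2-fold or more; no member rose by that much, against 6.99%. Counts are relative to the other RNA of a library, and in such bulk samples fewer cells of a type and less RNA per cell cannot be told apart.

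**Figure D1:**
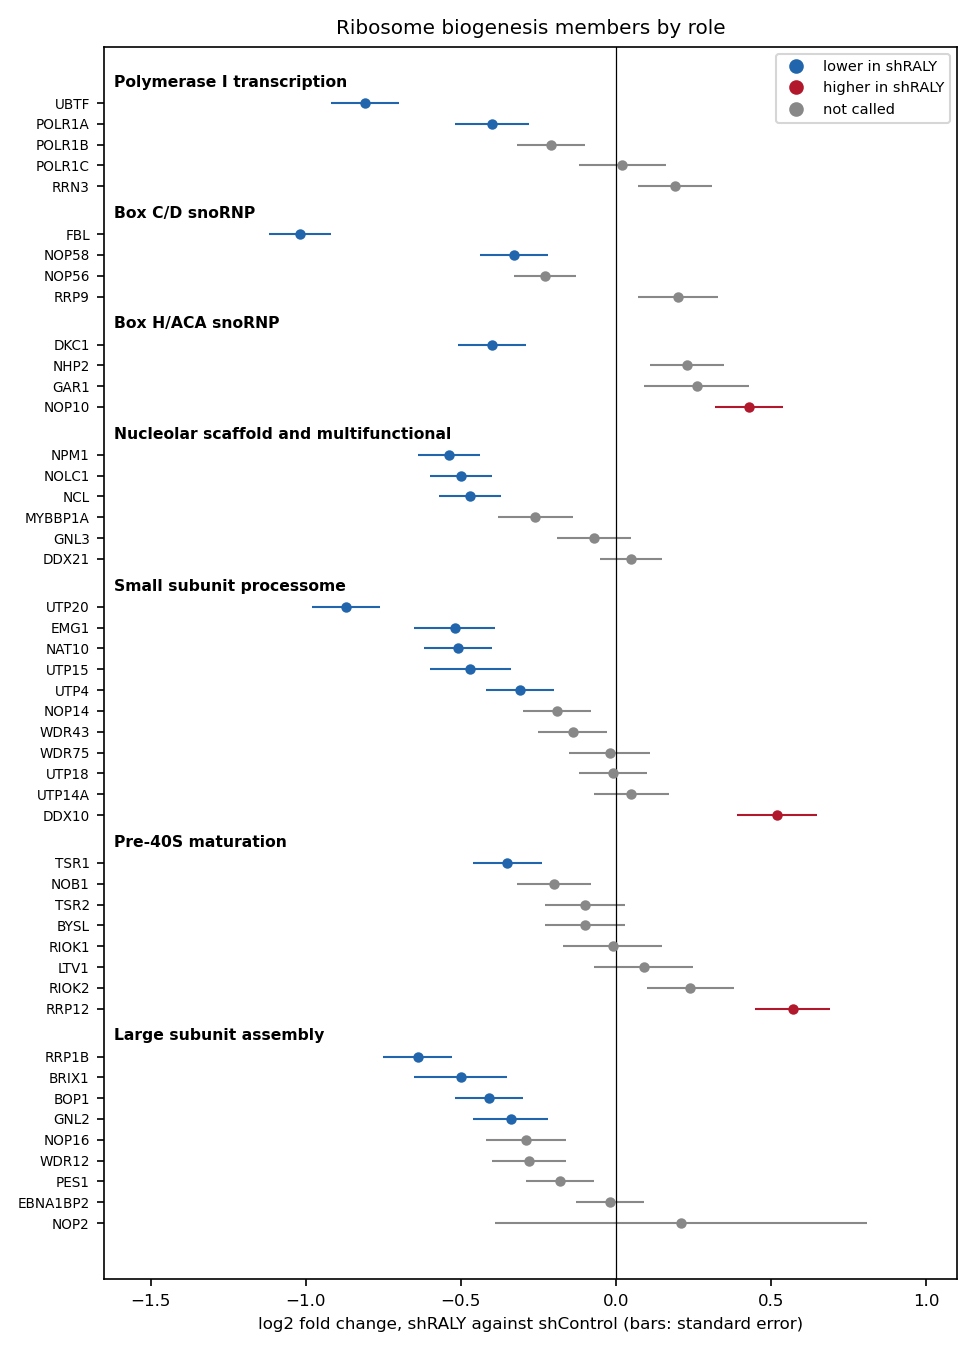
Log2 fold change of each of the 47 members, shRALY against shControl (x axis), with its standard error as a bar, grouped by role; blue points passed the edgeR test as lower, red as higher, grey did not pass. The 18 blue points reach from -0.31 (UTP4) to -1.02 (FBL), and the 3 red points from 0.43 (NOP10) to 0.57 (RRP12).

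In 28 members both shRALY libraries lay below both shControl libraries (59.6%, against 35.4% of all tested genes), in 8 both lay above (17%, against 34.2%), and in 11 the groups overlapped. The 47 genes together took 0.678% and 0.644% of all raw counts in shControl and 0.520% and 0.498% in shRALY. This sum rests heavily on NPM1 and NCL, the members with the most counts (1227 and 1016 CPM in shControl replicate 1). The count of NPM1 is uncertain, as given below. With shRALY replicate 1 left out, 10 members were called lower and 2 higher, against 11.3% and 13.5% of genes in that fit, and with shRALY replicate 2 left out 8 were lower and 2 higher, against 11.7% and 12.1%. With shControl replicate 1 or 2 left out, 22 or 21 were lower, against 21% and 19.3% of genes, and 5 were higher in each, against 21.2%. Among the 10017 genes that reached 10 CPM in 2 libraries, 26.3% were called lower and 27.1% higher, and 18 and 3 of the 46 members retained were.

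**Figure D2:**
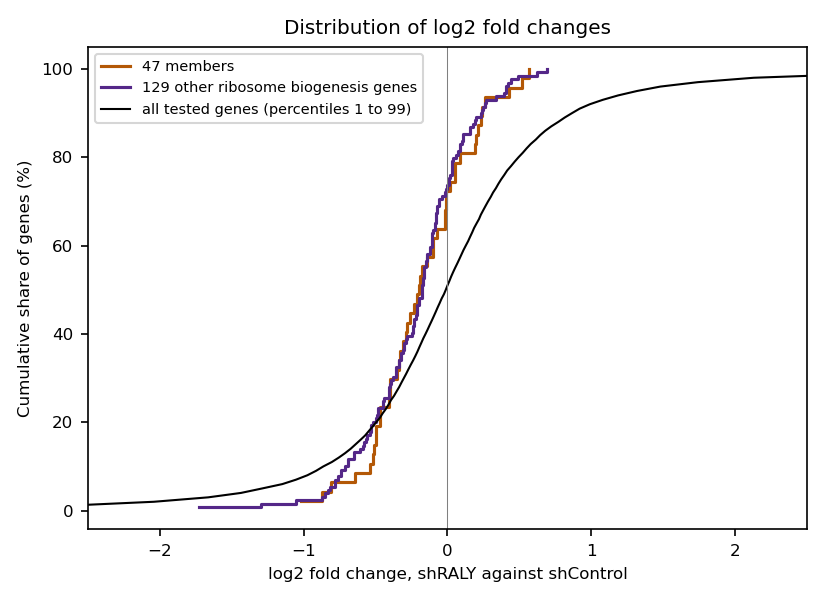
Cumulative share of genes (y axis, %) against the log2 fold change, shRALY against shControl (x axis), for the 47 members, the 129 tested other genes of ribosome biogenesis and all tested genes. Both ribosome biogenesis curves cross 0 near the 72.3% and 72.9% of their genes with a negative value. Both are narrower than the curve of all tested genes, which include many at lower levels.

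Among the genes of RNA polymerase I transcription, 2 of 5 fell (40%, against 20.4% of all tested genes) and none rose (against 20.6%). With so few genes in each role, these shares describe the genes and mark no role as particular. UBTF (chromosome 17, 44205033 to 44221626, GRCh38), which encodes the upstream binding factor that coats active ribosomal DNA, was at 139 and 155 CPM in shControl and 84.1 and 83.3 CPM in shRALY. Its shRALY libraries were nearly equal and far below the controls (log2 -0.81, SE 0.11; edgeR adjusted p = 2.52e-06). POLR1A, the largest catalytic subunit of the polymerase (chromosome 2, 86020216 to 86106155), was at 214 and 261 CPM against 165 and 196 CPM. The groups did not overlap, but each was spread (log2 -0.40, SE 0.12; edgeR adjusted p = 0.00873). POLR1B, the second-largest subunit, went from 63.6 ± 3.67 to 55.0 ± 2.26 CPM (SD, n = 2 per group here and below; log2 -0.21). POLR1C, a subunit shared with polymerase III, was at 21.7 ± 0.81 and 22.0 ± 1.24 CPM, and RRN3, which joins the polymerase to the promoter complex, at 88.6 ± 13.0 and 101 ± 9.24 CPM. RRN3 shares 26.9% of its 50-base words with other genes, so its count is uncertain. None of these 3 passed the test. POLR1A no longer passed once shRALY replicate 1 was left out (edgeR adjusted p = 0.321), while without shControl replicate 1 POLR1B passed as lower (edgeR adjusted p = 0.0236) and RRN3 as higher (edgeR adjusted p = 0.00265).

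Among the genes of the box C/D particle, 2 of 4 fell (50%, against 20.4% of all tested genes) and none rose (against 20.6%). FBL, fibrillarin, the methyltransferase of the particle (chromosome 19, 39834458 to 39846414), was at 270 and 274 CPM in shControl and 135 and 134 CPM in shRALY. Both groups were tight, and the level fell 2.03-fold (log2 -1.02, SE 0.10; edgeR adjusted p = 3.4e-08), the largest change of any member. NOP58, a scaffold protein (chromosome 2, 202265716 to 202303666), was at 126 and 107 CPM against 95.6 and 89.8 CPM (log2 -0.33, SE 0.11; edgeR adjusted p = 0.0233). The groups did not overlap, but NOP58 did not pass when shRALY replicate 1 (edgeR adjusted p = 0.169) or replicate 2 (edgeR adjusted p = 0.335) was left out. NOP56, the partner scaffold, was at 242 and 239 CPM against 210 and 199 CPM and did not pass (log2 -0.23, SE 0.10; edgeR adjusted p = 0.0732). It did pass without shControl replicate 1 (edgeR adjusted p = 0.0254) or replicate 2 (edgeR adjusted p = 0.0262). RRP9, which belongs to the U3 particle, was at 40.1 and 38.5 CPM in shRALY against 32.3 and 36.1 CPM in shControl. It did not pass (log2 0.20), and its order, with both shRALY libraries higher, was found in 34.2% of all tested genes. Without shControl replicate 2 the log2 fold change of RRP9 was 0.30.

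In the box H/ACA particle the gene of the catalytic subunit fell and that of a small partner rose (1 of 4 each, 25%, against 20.4% and 20.6% of all tested genes). DKC1, dyskerin, the pseudouridine synthase (chromosome X, 154762742 to 154777689), was at 186 and 165 CPM in shControl and 141 and 125 CPM in shRALY (log2 -0.40, SE 0.11; edgeR adjusted p = 0.00517). NOP10, a small structural subunit (chromosome 15, 34341713 to 34343177), was at 58.5 and 61.0 CPM against 77.3 and 84.1 CPM (log2 0.43, SE 0.11; edgeR adjusted p = 0.00364). The groups did not overlap for either gene, but both were named for passing the test, so this is no separate result. NHP2 and GAR1, the other core proteins, were each higher in both shRALY libraries, at 64.3 ± 6.49 and 75.4 ± 4.40 CPM and at 13.3 ± 1.91 and 16.0 ± 0.34 CPM, but neither passed (log2 0.23 and 0.26). Of the exonic bases of NHP2, 27.4% lie opposite RMND5B, and whether the counting used strand is unknown. Without shRALY replicate 2 neither DKC1 (edgeR adjusted p = 0.254) nor NOP10 (edgeR adjusted p = 0.149) passed, and without shControl replicate 2 NHP2 did (edgeR adjusted p = 0.00336).

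**Figure D3:**
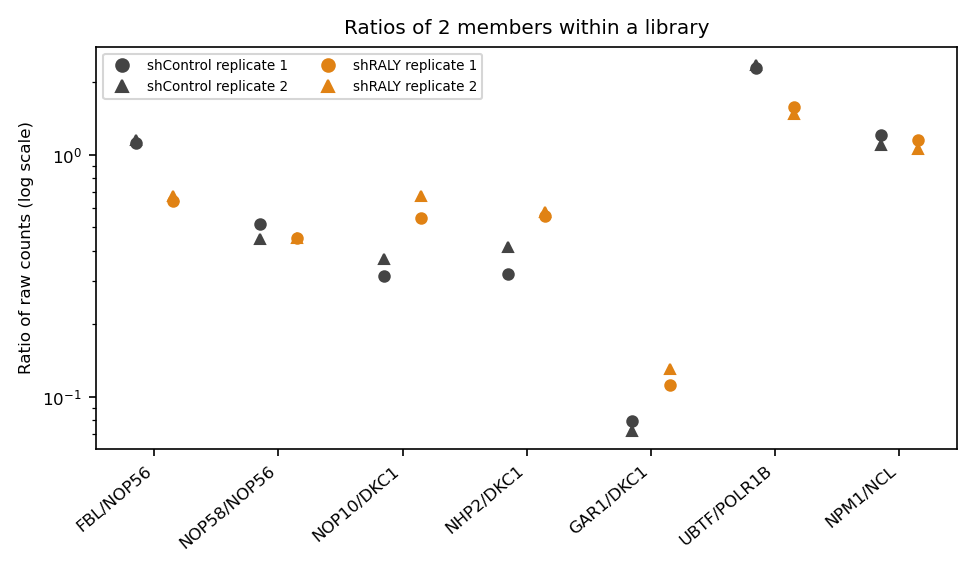
Ratio of the raw counts of 2 members within each library (y axis, log scale), for 7 pairs; dark points are shControl, orange points shRALY, circles replicate 1 and triangles replicate 2. The groups separate for FBL/NOP56, for UBTF/POLR1B and for the 3 ratios to DKC1, and overlap for NOP58/NOP56 and NPM1/NCL. The pairs were picked after their values were seen, so the number that separate is no result. The 3 ratios to DKC1 share that denominator, so they are not separate observations.

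A ratio of 2 genes within a library does not depend on how libraries are scaled. The pairs were picked after their values were seen and are given as a description. FBL counts were 1.12 and 1.15 times those of NOP56 in shControl and 0.641 and 0.672 times in shRALY, a log2 change of -0.79. NOP58 to NOP56 was 0.519 and 0.450 against 0.454 and 0.452, so those scaffold transcripts kept overlapping ratios. NOP10 to DKC1 was 0.315 and 0.369 against 0.549 and 0.674, a log2 change of 0.84, and the ratios of NHP2 and GAR1 to DKC1 changed by log2 0.64 and 0.67. UBTF to POLR1B went from 2.28 and 2.34 to 1.57 and 1.47. An exact permutation test of 2 libraries against 2 cannot give a two-sided p below 0.333, so no ratio can pass such a test.

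Of 6 genes of abundant or multifunctional nucleolar proteins, NPM1, NCL and NOLC1 fell (50%, against 20.4% of all tested genes) and none rose (against 20.6%). NPM1, nucleophosmin, a histone and ribosome chaperone that shapes the outer nucleolus (chromosome 5, 171387116 to 171411137), was at 1227 and 1020 CPM in shControl and 810 and 740 CPM in shRALY (log2 -0.54, SE 0.10; edgeR adjusted p = 0.000245). NPM1 shares 44.4% of its 50-base words with other genes, among them processed pseudogenes, so its count is uncertain. NCL, nucleolin, an RNA-binding protein of the nucleolus (chromosome 2, 231453531 to 231483641), was at 1016 and 928 CPM against 704 and 703 CPM (log2 -0.47, SE 0.10; edgeR adjusted p = 0.000472). NOLC1, which escorts snoRNPs (chromosome 10, 102152176 to 102163871), was at 234 and 235 CPM against 159 and 171 CPM (log2 -0.50, SE 0.10; edgeR adjusted p = 0.00041). The groups stood apart in these 3, which were named for passing the test, so this is no separate result. The NPM1 to NCL ratio of counts overlapped between groups (1.21 and 1.1 against 1.15 and 1.05). Scaled by length, NPM1 was the most abundant member in shControl at 1693 TPM (counts per kilobase of transcript, scaled to the same total in each library), followed by NCL at 639, FBL at 515 and NOP10 at 286 TPM. In shRALY the same scale gave 1080 for NPM1, 427 for NCL, 235 for FBL and 357 TPM for NOP10, which then stood above FBL.

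The other nucleolar proteins of this set did not pass. DDX21, a helicase that links polymerase I and snoRNA functions, was at 343 and 322 CPM in shControl and 343 and 347 CPM in shRALY (log2 0.05, SE 0.10). GNL3, nucleostemin, a GTPase, was at 84.3 ± 9.07 and 80.5 ± 5.85 CPM (log2 -0.07). MYBBP1A, a nucleolar regulator of transcription, was at 167 and 212 CPM against 151 and 166 CPM (log2 -0.26; edgeR adjusted p = 0.078); it passed without shControl replicate 1 (edgeR adjusted p = 2.96e-05). NOLC1 did not pass when shRALY replicate 1 was left out (edgeR adjusted p = 0.0729).

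**Figure D4:**
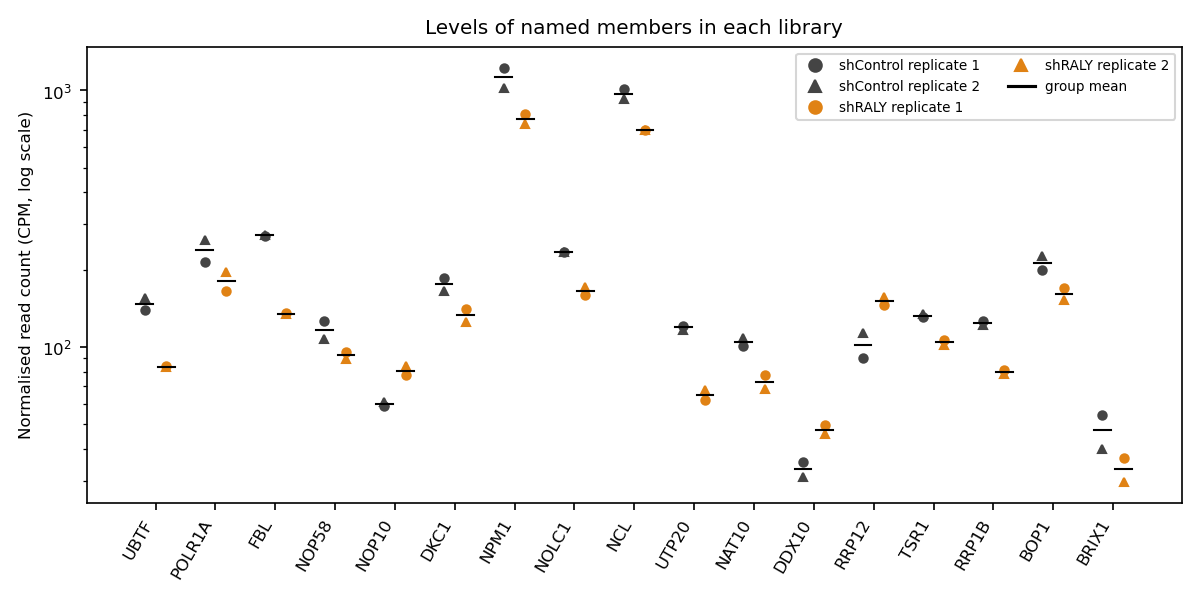
Normalised read counts (CPM, log scale) of the 17 members given in full, in each library; dark points are shControl, orange points shRALY, circles replicate 1, triangles replicate 2, and black bars group means. In each of the 17 the shRALY points do not overlap the shControl points, and NOP10, DDX10 and RRP12 are the 3 that are higher. The 17 were picked for passing the edgeR test, so this separation is no separate result. Both shRALY libraries lay below both shControl libraries in 35.4% of all tested genes, and above in 34.2%.

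In the small subunit processome, 5 of 11 members fell (45.5%, against 20.4% of all tested genes) and 1 rose (9.09%, against 20.6%). UTP20, a very large helical-repeat protein (chromosome 12, 101280109 to 101386616), was at 121 and 116 CPM in shControl and 62.0 and 68.1 CPM in shRALY, 1.82-fold lower (log2 -0.87, SE 0.11; edgeR adjusted p = 1.29e-06). NAT10, an acetyltransferase of small subunit rRNA (chromosome 11, 34105602 to 34147670), was at 101 and 108 CPM against 77.5 and 68.4 CPM (log2 -0.51, SE 0.11; edgeR adjusted p = 0.000841). DDX10, a helicase (chromosome 11, 108665025 to 108940930), moved the other way, from 35.6 and 30.9 CPM to 49.5 and 45.6 CPM (log2 0.52, SE 0.13; edgeR adjusted p = 0.00215). For these 3 genes the groups did not overlap, but they were named for passing the test, so this is no separate result. The rRNA methyltransferase gene EMG1 (log2 -0.52) and the UTP-A subunit genes UTP15 (log2 -0.47) and UTP4 (log2 -0.31) also fell, with edgeR adjusted p of 0.00246, 0.00635 and 0.0345. LPCAT3 lies opposite 49.5% of the exonic bases of EMG1, so its count is uncertain.

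The other 5 processome members had log2 fold changes between -0.19 and 0.05: NOP14 (-0.19), WDR43 (-0.14), WDR75 (-0.02), UTP18 (-0.01) and UTP14A (0.05). WDR43 and WDR75 belong to the UTP-A complex, as UTP4 and UTP15 do. UTP14A stimulates a helicase of the processome and was at 43.4 ± 0.29 and 45 ± 1.59 CPM. Without shRALY replicate 2 the calls of NAT10 (edgeR adjusted p = 0.116), EMG1 (0.15), UTP15 (0.0805) and UTP4 (0.518) were lost. Without shRALY replicate 1 those of DDX10 (edgeR adjusted p = 0.0808), UTP15 (0.107) and UTP4 (0.124) were lost, and DESeq2 did not call UTP4 (adjusted p = 0.0576). WDR43 passed as lower without shControl replicate 2 (edgeR adjusted p = 0.0306).

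Among the 8 genes of late small subunit maturation, 1 rose and 1 fell (12.5% each, against 20.6% and 20.4% of all tested genes) and 6 did not pass. RRP12, an export and maturation factor (chromosome 10, 97356358 to 97426076), was at 90.7 and 113 CPM in shControl and 145 and 157 CPM in shRALY, the largest rise of any member (log2 0.57, SE 0.12; edgeR adjusted p = 0.000465). TSR1, a GTPase-like factor of the pre-40S particle (chromosome 17, 2322503 to 2337507), was at 131 and 134 CPM against 106 and 102 CPM (log2 -0.35, SE 0.11; edgeR adjusted p = 0.0107). Genes on the opposite strand, mainly SRR, cover 20.8% of the exonic bases of TSR1. It did not pass when shRALY replicate 1 (edgeR adjusted p = 0.161) or replicate 2 (edgeR adjusted p = 0.251) was left out. NOB1, the endonuclease that makes the last cut of the small subunit rRNA, was at 68.1 ± 3.51 and 59.3 ± 5.33 CPM (log2 -0.20), with an opposite-strand overlap of 20.2%. BYSL and TSR2, the latter a chaperone of a ribosomal protein, were each at log2 -0.10. The kinase genes RIOK1 and RIOK2 were at log2 -0.01 and 0.24, and LTV1, an assembly factor whose exons overlap other genes on its strand over 34.8% of their bases, was at log2 0.09. Without shControl replicate 1, NOB1 passed as lower (edgeR adjusted p = 0.0354) and RIOK2 as higher (edgeR adjusted p = 0.00845).

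In large subunit assembly, 4 of 9 members fell (44.4%, against 20.4% of all tested genes) and none rose (against 20.6%). RRP1B (chromosome 21, 43659548 to 43696079), a nucleolar assembly factor, was at 126 and 122 CPM in shControl and 81.1 and 78.0 CPM in shRALY (log2 -0.64, SE 0.11; edgeR adjusted p = 4.78e-05). BOP1 was at 199 and 227 CPM against 169 and 152 CPM (log2 -0.41, SE 0.11; edgeR adjusted p = 0.00432). BRIX1, an early assembly factor (chromosome 5, 34915376 to 34925996), was at 54.3 and 40 CPM against 36.8 and 29.7 CPM (log2 -0.50, SE 0.15; edgeR adjusted p = 0.00812). The libraries of BRIX1 were widely spread within each group, though the groups did not overlap. GNL2, a GTPase, fell from 42.5 ± 0.86 to 33.6 ± 0.69 CPM (log2 -0.34; edgeR adjusted p = 0.0315).

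BOP1 forms the PeBoW complex with PES1 and WDR12, and those partners did not pass. Each was lower in both shRALY libraries, an order found in 35.4% of all tested genes. PES1 was at 133 ± 3.86 and 117 ± 6.16 CPM (log2 -0.18; edgeR adjusted p = 0.19) and WDR12 at 55.4 ± 1.68 and 45.5 ± 1.09 CPM (log2 -0.28; edgeR adjusted p = 0.0557). WDR12 passed without shControl replicate 1 (edgeR adjusted p = 0.0466) or replicate 2 (0.0199). NOP16 was at 38 ± 0.64 and 31.1 ± 0.17 CPM (log2 -0.29; edgeR adjusted p = 0.0719), with 20% of its exonic bases overlapped on the opposite strand. EBNA1BP2 was at 110 ± 9.61 and 108 ± 4.55 CPM (log2 -0.02).

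BOP1 did not pass with shRALY replicate 1 (edgeR adjusted p = 0.0529) or replicate 2 (0.222) left out, nor did GNL2 without replicate 1 (0.228) or 2 (0.305), with DESeq2 (adjusted p = 0.0696) and with no filter on low counts (edgeR adjusted p = 0.0528). BRIX1 did not pass with shControl replicate 1 (edgeR adjusted p = 0.0824) or shRALY replicate 2 (0.228) left out. NOP2, an rRNA methyltransferase gene, had only 14, 10, 21 and 7 raw counts in shControl replicates 1 and 2 and shRALY replicates 1 and 2. Of its 50-base words, 83.3% also occur in AC006064.6, a gene annotated over it on the same strand, which had 0 counts in every library. NOP2 thus has no usable level here (log2 0.21, SE 0.60), and whether reads shared by both genes were left uncounted was not tested.

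Of 130 other listed genes of ribosome biogenesis, 129 were tested. Among them 48 fell (37.2%, against 20.4% of all tested genes) and 8 rose (6.2%, against 20.6%), with a median log2 fold change of -0.18. By set, falls and rises were 4 and 0 of 10 for polymerase I genes, 5 and 0 of 9 for snoRNP assembly, 14 and 4 of 41 for small subunit genes, 19 and 3 of 52 for large subunit genes and 6 and 1 of 17 for the exosome and precursor trimming. DDX56, a helicase of large subunit assembly, was at 150 and 152 CPM in shControl and 47.9 and 43.5 CPM in shRALY, 3.31-fold lower (log2 -1.73, SE 0.11; edgeR adjusted p = 2.11e-11). NOC2L, of an early large subunit complex, was at 117 and 135 against 50.7 and 51.7 CPM (log2 -1.30; edgeR adjusted p = 3.83e-09). The polymerase I subunit gene POLR1E was at 53.0 and 51.5 against 23.4 and 27.0 CPM (log2 -1.05; edgeR adjusted p = 5.48e-07), and FCF1, a processome gene, was at log2 -0.85 (edgeR adjusted p = 8.69e-06).

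The smallest adjusted p among the rises belonged to RIOK3, a kinase-like gene (log2 0.69; edgeR adjusted p = 0.00015), SBDS (log2 0.62; 0.000259), the exosome subunit EXOSC6 (log2 0.49; 0.00103) and EIF6 (log2 0.41; 0.00352). EIF6 keeps the large subunit from joining too early, and SBDS helps release it. SBDS was at 62.9 and 51.0 CPM in shControl and 91.8 and 83.3 CPM in shRALY. EIF6 was at 109 and 115 against 151 and 146 CPM. The groups did not overlap in either, but both genes were named for passing the test. EIF6 did not pass with shRALY replicate 1 (edgeR adjusted p = 0.118) or 2 (0.0717) left out, nor EXOSC6 without shRALY replicate 2 (0.0635). With either shRALY library left out, fewer of these other genes passed in each direction, and fewer of all tested genes did too. Without shControl replicate 2, more of these other genes and more of all tested genes were called higher.

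**Figure D5:**
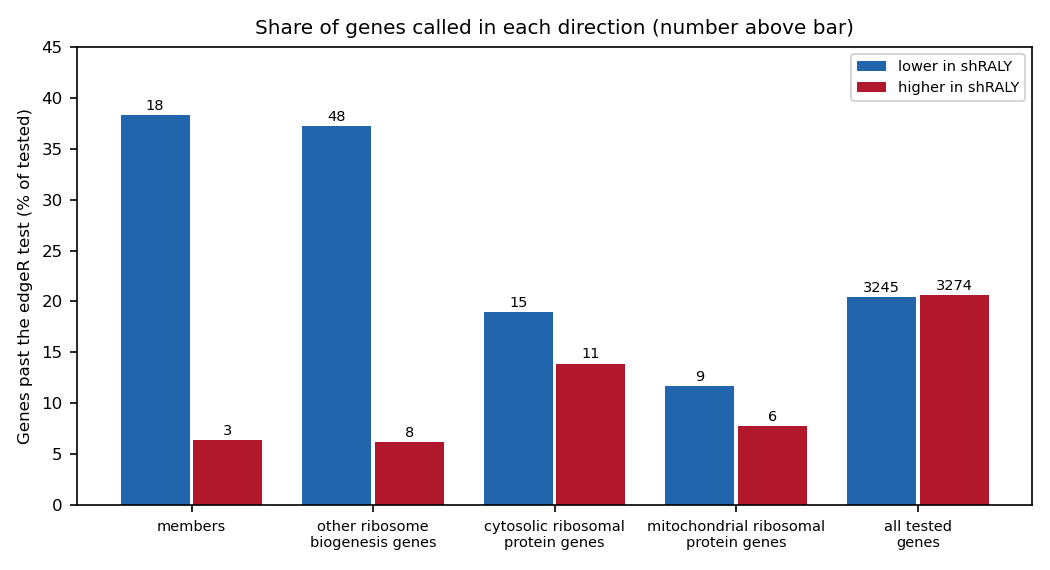
Share of tested genes past the edgeR test (y axis, %) in each list, lower (blue) or higher (red) in shRALY, with the number of genes above each bar. Falls were 38.3% of the members and 37.2% of the other ribosome biogenesis genes, against 19% of cytosolic and 11.7% of mitochondrial ribosomal protein genes and 20.4% of all tested genes.

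The genes of the ribosomal proteins themselves are given for comparison, beside 20.4% lower and 20.6% higher over all tested genes. Of 79 cytosolic ribosomal protein genes, 15 fell (19%) and 11 rose (13.9%), with a median log2 fold change of -0.04, a range of -3.68 to 0.60 and 2 genes lower by 2-fold or more. Of 77 tested mitochondrial ribosomal protein genes, 9 fell (11.7%) and 6 rose (7.79%), with a median of -0.09, a range of -1.55 to 0.85 and 2 genes lower by 2-fold or more. The differences between these lists and the members were not tested. Many ribosomal protein genes have near-identical processed copies, which leaves the split of their reads uncertain.

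Annotation places 26 snoRNA genes inside 8 of the members, on the same strand (POLR1C, NOP56, NOP58, DKC1, NCL, GNL3, WDR43 and TSR1). The libraries were selected on poly(A) and fragments of 370 to 420 bp were preferred, so short snoRNAs are hardly sampled. In each library, the 26 genes together had 31 and 33 raw counts in shControl and 26 and 24 in shRALY, 12 of them had 0 in every library, and the highest single value was 12. With so few counts, a change in these snoRNAs was not tested.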

How the data were processed

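Per the labels' protocols, Illumina TruSeq libraries were made from 1 µg of Trizol-extracted RNA, purified with poly-T beads. The authors deposited 1 file of raw counts for each library, by Ensembl gene. Per the submitters' processing notes the tools included DESeq2 1.20.0, featureCounts 1.5.0-p3 and HISAT2 2.0.5 and the build was hg38. The sources used here do not give the annotation release, the strand setting or how shared reads were counted. All 58735 identifiers matched GENCODE 29. A space in place of a tab on 1 line was read as a tab.

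The test was that of edgeR 4.0.16 (R 4.3.3) on the counts: filterByExpr (minimum count 10, minimum total 15), TMM scaling and the robust quasi-likelihood F-test, with Benjamini-Hochberg adjustment over the 15912 genes kept, which held 99.83% of counts, and a threshold of 0.05. The design had 2 residual degrees of freedom and no covariate. CPM used library sizes scaled by TMM, standard errors were derived from the log2 fold change and its F statistic, and TPM values use the longest transcript. The floor of 3 counts is 0.161 to 0.179 CPM and covers counting error only. The tests were tested on simulated data. Genes with 20% or more of shared 50-base words or overlapped exonic bases are called uncertain.

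The members and lists were chosen with earlier results of these data known. In each role, up to 3 members past the test with the smallest adjusted p, the most abundant member and any member against the trend were given in full, and in the other genes up to 4 in each direction. DDX21, NOP56, RRP9, MYBBP1A and the other members given beyond that rule were named after their values were seen. Alternatives were DESeq2 1.42.0, other scaling and filters, a fit without the robust option, a block on replicate number, leaving out each library and testing protein-coding genes alone.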

Additional observations from a re-analysis of the deposited data

How the results depend on the processing

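With each library left out in turn, 2 to 5 members were called higher and 8 to 22 lower, and the median of the members stayed between -0.26 and -0.17. By role, the ranges for higher and lower were 0 to 1 and 1 to 3 for polymerase I, 0 to 1 and 1 to 3 for box C/D, 0 to 2 and 0 to 1 for box H/ACA, 0 and 2 to 4 for the nucleolar scaffold genes, 0 to 1 and 1 to 6 for the processome, 1 to 2 and 0 to 2 for late small subunit maturation, and 0 and 1 to 5 for the large subunit. Other ribosome biogenesis genes gave 2 to 12 and 20 to 55, and all tested genes 2040 to 3559 and 1897 to 3499. These fits hold fewer samples, and the lone library of a group is assumed to vary like the other group. The share of all tested genes called also moved between these fits, as given above, so these ranges mark no role as particular. Of the 18 members that fell, 16 were still lower with DESeq2, 17 with no filter on low counts, 10 without shRALY replicate 1 and 8 without shRALY replicate 2. Across all alternatives that kept the 4 libraries, DESeq2 included, 16 to 22 members were lower and 3 higher in each. Of all genes in those fits, 10.5% to 26.3% were lower and 10.8% to 27.1% higher. DESeq2 gave 16 lower against 16.5% of all genes. Library size alone gave 22 lower against 23.3%, adding NOP56, MYBBP1A, NOP16 and WDR12. UBTF, FBL, NPM1, NCL, UTP20 and RRP1B kept their fall and RRP12 its rise in all 12 alternatives.

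With the replicate block, 22 members were lower and 3 higher, and all 18 falls of the unblocked fit were among them, with NOP56 (edgeR adjusted p = 0.0291), MYBBP1A (0.0208), WDR12 (0.0302) and NOP16 (0.0466) added. Of all tested genes, 3639 (22.9%) were higher and 3619 (22.7%) lower. The replicate numbers share no stated source. The deviations of same-numbered libraries correlated at 0.105 across 14251 genes, which are not independent, and only 2 pairs exist.

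The log2 fold change turned its sign in 11 members that did not pass, among them NOP2 (-0.66 without shRALY replicate 1). With library size alone, POLR1C was at -0.03, DDX21 at -0.00 and UTP14A at -0.01. UTP18 was at 0.00 with DESeq2, RLE size factors and the 10 CPM filter, as was RIOK1 with the latter 2. With a library left out, the lowest and highest values were POLR1C -0.03 and 0.09, GNL3 -0.16 and 0.04, UTP18 -0.09 and 0.10, WDR75 -0.18 and 0.18, BYSL -0.26 and 0.05, LTV1 -0.05 and 0.27, RIOK1 -0.11 and 0.10, NOP2 -0.66 and 0.74 and EBNA1BP2 -0.10 and 0.06. The cause was not tested. Depth limits NOP2, at 7 to 21 raw counts per library.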
